A study of Mus musculus with 4 samples.

Results

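Ankrd1, Ankrd23, Flnc, Xirp1, Xirp2, Csrp3, Nrap and Sprr1a are 8 genes that cardiac muscle uses at the Z-disc or switches on under mechanical stress. They were taken by symbol from the 32285 genes of the count tables. All 8 had at least 1 UMI (unique molecular identifier, 1 for each captured mRNA molecule) in every section, and all 8 were among the 4769 genes with at least 1000 UMIs. The measurements come from Visium slides, on which each barcoded spot collects the mRNA of the several cells above it. The hearts were those of female Hsd:ICR (CD1) mice, 12 weeks old, in which the left anterior descending (LAD) coronary artery was tied permanently to cause myocardial infarction (MI). A single 10 μm section was taken from 1 mouse on day 1, day 4, day 7 and day 14, and no section of an unoperated or sham-operated heart was analysed here. Days therefore have no replicates, and day, mouse and section cannot be told apart.

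The Z-disc is the plate at each end of the sarcomere into which actin filaments are anchored, and it is one of the places where a heart muscle cell senses stretch. Ankrd1 and Ankrd23 are ankyrin repeat proteins that bind titin and can move to the nucleus. Filamin C (Flnc) and the Xin proteins (Xirp1 and Xirp2) crosslink actin at Z-discs, intercalated discs and sites of myofibril damage, Csrp3 (muscle LIM protein) is a Z-disc adaptor, and Nrap links actin to the membrane while myofibrils assemble. Sprr1a is better known from the cornified envelope of skin and is also induced in stressed heart muscle. Nppb encodes B-type natriuretic peptide, which ventricular muscle releases when it is stretched, and it serves below as the partner gene for correlations over spots.

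The upstream sequences of the genes on which the results turn are shown here because the pair of AP-1 elements of Sprr1a and the MCAT elements of Ankrd1 and Nppb are sites of factors known for stress and stretch responses. They were read from RefSeq promoter windows on GRCm38 (mm10) and written 5′ to 3′ on the gene's strand, with motif matches in capitals. Sprr1a (chr3:92485896-92486131, minus strand) and Xirp2 (chr2:67445752-67446001, plus strand) are shown up to the start of the annotated gene. For Ankrd1 (chr19:36120037-36120066 and chr19:36119950-36119979, minus strand) and Nppb (chr4:147985794-147985823, plus strand), 30 bases around the MCAT matches are shown, because the annotation places longer transcripts over those windows.
Sprr1a: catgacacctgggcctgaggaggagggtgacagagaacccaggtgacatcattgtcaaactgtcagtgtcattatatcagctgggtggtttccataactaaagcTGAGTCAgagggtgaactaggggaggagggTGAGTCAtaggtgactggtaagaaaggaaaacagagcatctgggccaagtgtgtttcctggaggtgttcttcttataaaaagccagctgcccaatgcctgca
Xirp2: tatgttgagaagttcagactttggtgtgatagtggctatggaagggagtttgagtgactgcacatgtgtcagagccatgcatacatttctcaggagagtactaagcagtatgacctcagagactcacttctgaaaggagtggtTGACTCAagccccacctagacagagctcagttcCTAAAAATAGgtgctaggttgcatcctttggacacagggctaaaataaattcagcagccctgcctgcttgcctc
Ankrd1 distal site: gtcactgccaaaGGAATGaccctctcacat
Ankrd1 proximal site: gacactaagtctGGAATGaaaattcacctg
Nppb: aGGAATGcagctgataaatcagAGATAAcc

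The Sprr1a run held the AP-1 letters TGANTCA at 146 and 116 bases before the RefSeq start. The Xirp2 run held the same letters 107 bases before the start and a MEF2 element at 74 bases. Ankrd1 held the MCAT letters CATTCC on the opposite strand at 210 and 123 bases. It also held the GATA letters AGATAA on the opposite strand at 47 bases, in a part not shown. Nppb held the MCAT letters on the opposite strand at 105 bases, with the GATA letters at 84 bases. A window was found for 7 of the 8 genes, and not for Xirp1, and 3 of the 7 had 2 windows. On either strand, MCAT letters were in the windows of 3 of 7 genes and in 14.7% of all 32851 windows, AP-1 letters in 2 of 7 and in 7.81%, and GATA letters in 2 of 7 and in 11.2%. The GAS letters TTCNNNGAA, a STAT site, were found in 1 of 7 genes, Ankrd23, where they overlap the MCAT letters, against 8.3% of windows, a MEF2 element in 1 of 7 against 0.557%, and a CArG box in 0 of 7 against 1.63%. Windows of Csrp3 and Nrap held none of the 6 motifs. These are matches of letters and no measurement of binding.

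After spots with over 1% of UMIs in hemoglobin genes were removed, 7503 of 9102 spots remained, with 9292678 to 15713779 UMIs and a median of 5188 to 8799 UMIs per spot in a section. Barcodes mark positions on a slide that all slides share, and 820 of 2804 occurred in all 4 sections. Within each section the remaining spots were ranked on the share of their UMIs in Myh6 and Myl2, the heavy and light chains of ventricular myosin, and split into 4 quartiles, with quartile 1 the lowest. Levels are given as CPM, the UMIs of a gene or list in every 1000000 UMIs of a section or group of spots. All 10 cardiomyocyte reference genes (troponins, titin and other sarcomere and calcium handling genes) were detected in every quartile, and their summed level was 9795 to 38900 CPM in quartile 1 against 47833 to 52953 in quartile 4. The summed level of 8 macrophage markers was 1041 to 6290 CPM in quartile 1 and 290 to 448 in quartile 4, and that of 6 fibroblast markers was 2159 to 39057 and 995 to 1538. Quartile 1 of day 7 also held 29907 UMIs of 10 fast skeletal muscle genes, or 20340 CPM, against at most 19.9 CPM in quartile 1 of the other days. Spots were called skeletal where they held at least 10 such UMIs, and all 118 were on day 7. Median UMIs per spot were lowest in quartile 1 on days 4, 7 and 14, at 6524.5, 2826 and 2329.5 against 9221, 5515 and 8278 in quartile 4, whereas on day 1 they were 6389 and 5971. The mixture of cells and the depth thus moved with the quartiles, and their part in the results below was not tested except where values without skeletal spots or per reference UMI are given. Fewer heart muscle cells and less mRNA per cell cannot be told apart in a spot. Spot positions were not used, so quartiles are ranks of myosin share, and whether they lie at the border of an infarct was not measured.

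Over whole sections, 7 of the 8 genes had their highest level on day 1, and Sprr1a had its highest on day 4. The share of all tested genes with their highest level on day 1 was not computed. Whether 7 of 8 exceeds it is therefore not known. In order of day, Ankrd1 stood at 3427, 1521, 2121 and 889 CPM, a range of 3.86-fold. Flnc stood at 567, 152, 240 and 154. Its day 4 and day 14 values had overlapping 95% counting intervals, while its day 1 value lay well above them. Xirp2 had 328, 161, 170 and 104 CPM, with overlapping intervals on days 4 and 7. Xirp1 had 209, 99.0, 120 and 89.8, with overlapping intervals on days 4 and 14. Both Xin genes thus had day 1 highest and day 14 lowest. Csrp3 was at 2534, 1338, 1560 and 1740 CPM, and unlike Ankrd1 its lowest section was day 4. Nrap was at 396, 287, 297 and 219, with days 4 and 7 overlapping. Ankrd23 varied least, with 316, 233, 310 and 251 CPM, and its intervals on days 1 and 7 overlapped.

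Sprr1a differed from the other 7 genes in its order of days. Its UMIs numbered 648, 1119, 285 and 5 in order of day, or 54.2, 78.0, 30.7 and 0.318 CPM. The day 14 section held the most UMIs of the 4, so its 5 were the fewest at the greatest depth. For comparison, Nppb had 749, 318, 730 and 129 CPM, with days 1 and 7 overlapping. The myosin genes used for the ranking ranged only 1.25-fold (Myh6) and 1.36-fold (Myl2) over days. With 1 mouse a day these are descriptions, and all intervals cover counting error only. The 7 genes kept day 1 as their highest day, and Sprr1a kept day 4, with no hemoglobin filter, without skeletal spots and, except for Ankrd23, per 1000 UMIs of the cardiomyocyte reference. On that last scale Ankrd23 stood at 6.93 on day 1 and 7.37 on day 7.

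**Figure D1:**
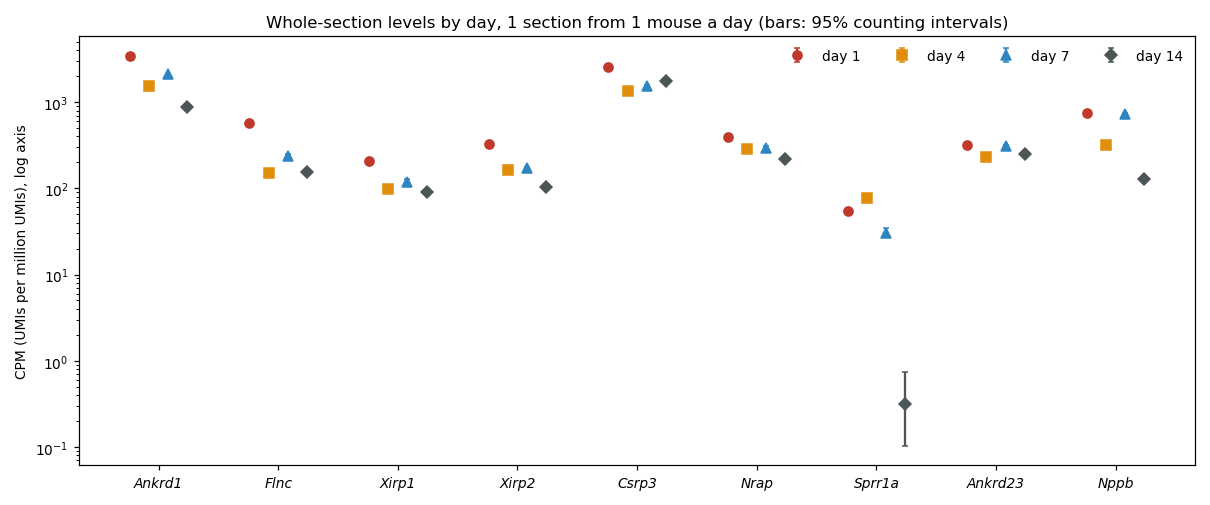
Level of each gene and of Nppb in whole sections, in CPM on a log axis, with 95% Poisson counting intervals and 1 section from 1 mouse a day. Day 1 is highest for 7 of the 8 genes, and Sprr1a is highest on day 4 at 78.0 and lowest on day 14 at 0.318.

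Of the 8 genes, Sprr1a (GRCm38 chr3:92483952-92485895, minus strand) had the highest ratio of quartile 1 to quartile 4 on days 1, 4 and 7. On day 1 it stood at 197 CPM in quartile 1, 31.4 in quartile 2, 2.46 in quartile 3 and 1.72 in quartile 4. On day 4 the values were 312, 62.7, 5.39 and 3.42, and on day 7 they were 78.2, 60.5, 3.05 and 1.92. On day 14 all 5 of its UMIs were in quartile 1, at 2.40 CPM, and quartiles 2 to 4 held 0 UMIs, which allows up to 0.714 CPM in quartile 4 by a count of 3 and 0.878 CPM by the 95% interval. Quartile 1 was thus the highest in every section, with an interval apart from that of quartile 4 on days 1, 4 and 7 and overlapping it on day 14. Quartile 1 exceeded quartile 4 by 115-fold, 91.3-fold and 40.7-fold on days 1, 4 and 7. On day 14, with 5 UMIs against 0, the lower end of the exact interval of the log2 ratio was 0.89. Across the 4 sections edgeR gave a log2 fold change of 5.85 (SE 0.45, adjusted p = 6.21e-06) for quartile 1 against quartile 4. For quartile 2 against quartile 4 it gave 4.29 (SE 0.46, adjusted p = 0.00236), and for quartile 1 against quartile 2 it gave 1.56 (SE 0.32, adjusted p = 0.00523). Quartile 1 held 539 of the 648 Sprr1a UMIs on day 1 and 862 of the 1119 on day 4. These calls thus concern a gene that passed the filter of 1000 UMIs through the quartile where it was high.

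Under all 15 alternatives, among them a filter of 10 UMIs, the first of these calls stood, with log2 values of 4.77 to 7.81. The second was lost without day 1 (log2 4.37, adjusted p = 0.0650), without day 4 (log2 4.47, adjusted p = 0.165) and without the section block (log2 4.28, adjusted p = 0.250), each with a fold change near that reported. The third was lost without day 4 (log2 1.43, adjusted p = 0.0564), without the block (log2 1.61, adjusted p = 0.218) and with spots ranked on the reference genes (log2 0.95, adjusted p = 0.0544). In deciles of spots the gene peaked in decile 1 on day 1 at 266 CPM. The day 4 peak of 451 was in decile 2 and the day 7 peak of 224 in decile 3. Its level in decile 1 was 122 on day 4 and 29.8 on day 7, so on those days the spots poorest in myosin were not the richest in Sprr1a. Markers of keratinising epithelium, a tissue that makes Sprr1a, summed to at most 9 UMIs in any quartile of any section, and the keratins Krt5 and Krt6a and involucrin (Ivl) were at 0 in all of them.

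Ankrd1 (chr19:36111961-36120099, minus strand) was highest in quartile 1 on day 1 and in quartile 2 on days 4 and 7. On day 1 it stood at 7901 CPM in quartile 1, 5019 in quartile 2, 806 in quartile 3 and 473 in quartile 4. On day 4 the values were 1482, 3109, 974 and 691, and on day 7 they were 885, 3828, 1618 and 1624. On days 4 and 7 quartile 2 was thus the highest, and on day 7 quartile 1 was the lowest. On day 14 quartiles 1 to 4 stood at 1316, 915, 792 and 755. The log2 ratios of quartile 1 to quartile 4 were 4.06, 1.10, -0.88 and 0.80 in order of day. The fit over the 4 sections gave a log2 fold change of 1.01 (SE 0.63, adjusted p = 0.172), which did not pass the test. That SE rests on a dispersion shared by all 4 quartiles and does not measure the spread of the 4 section ratios. Quartile 2 was above quartile 4 in 4 of 4 sections, by log2 values of 0.28 to 3.41, and the fit gave 1.54 (SE 0.61, adjusted p = 0.153). Without day 1 the log2 fold change of quartile 1 was -0.0064.

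In deciles, Ankrd1 peaked at 8170 CPM in decile 2 on day 1, with decile 3 overlapping it. The peaks of the later days lay in decile 4 at 4008, in decile 3 at 4788 and in decile 2 at 1913. On days 4, 7 and 14 decile 1 held only 282, 264 and 259 CPM, below the 703, 1627 and 740 of decile 10. The curve over deciles was therefore a hump on those days, whereas on day 1 it was a plateau over deciles 1 to 4. Ankrd23 (chr1:36530188-36536883, minus strand), the other ankyrin repeat gene, peaked in decile 2 on day 1 at 509 CPM, with deciles 1, 3 and 4 overlapping it, and in decile 3 on day 7 at 404, with deciles 4 and 5 overlapping it. Its peaks on days 4 and 14, in decile 3 at 425 and in decile 2 at 364, overlapped no other decile. Its range was smaller. In quartiles 1 to 4 it stood at 502, 388, 197 and 198 on day 1 and at 248, 295, 196 and 206 on day 4. The day 7 values were 256, 370, 289 and 303, and those of day 14 were 283, 264, 241 and 232. Quartile 2 was above quartile 4 in 4 of 4 sections, and neither comparison with quartile 4 passed the test (log2 0.04, SE 0.22, adjusted p = 0.879 for quartile 1, and log2 0.39, SE 0.22, adjusted p = 0.270 for quartile 2).

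**Figure D2:**
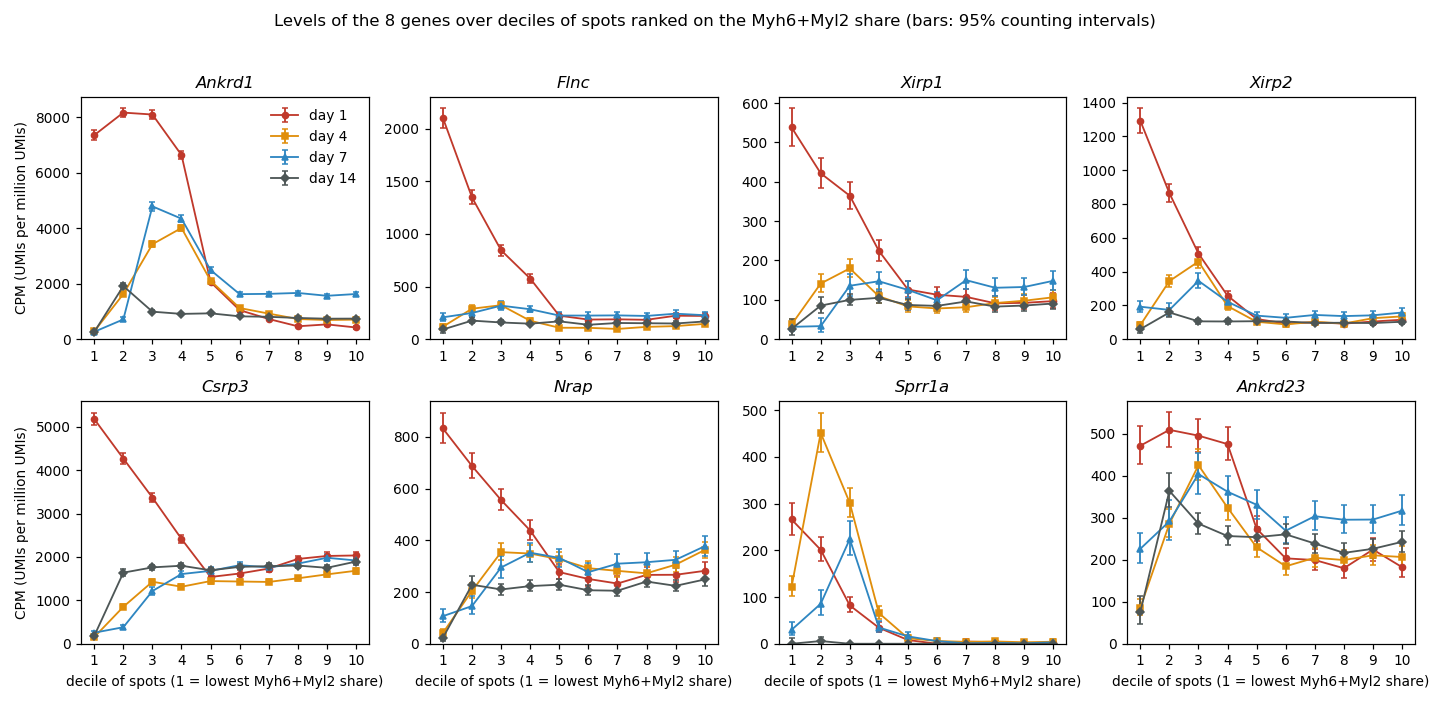
Level of each of the 8 genes in CPM over deciles of spots, with decile 1 the lowest in Myh6 and Myl2 share, 1 line for each section and bars for 95% Poisson counting intervals. Ankrd1 peaks in decile 2 on day 1 at 8170 and in deciles 4 and 3 on days 4 and 7, Csrp3 and Nrap fall away in decile 1 after day 1, and Sprr1a is near 0 beyond decile 5.

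Among the actin crosslinkers, Xirp2 (chr2:67446002-67526614, plus strand) was the one with quartile 1 above quartile 4 in 4 of 4 sections. On day 7 Xirp2 stood at 384 CPM in the 118 skeletal spots. In the 347 other spots of quartile 1 it stood at 82.3, below the 146 of quartile 4. Those 347 spots are the rest of quartile 1 and not a quartile ranked anew. A day 7 ratio for quartiles ranked without skeletal spots is not given. On day 1 Xirp2 stood at 943 CPM in quartile 1 and 234, 95.1 and 106 in quartiles 2 to 4. The day 4 quartiles were at 288, 186, 93.2 and 122, those of day 7 at 182, 224, 135 and 146, and those of day 14 at 119, 106, 99.4 and 98.3. Quartile 1 to quartile 4 ratios were 8.90-fold, 2.35-fold, 1.25-fold and 1.22-fold on the 4 days. edgeR gave a log2 fold change of 1.00 (SE 0.42, adjusted p = 0.0496), just past the threshold of 0.05. The call stood under 8 of 15 alternatives. It was lost without day 1 (log2 0.19, adjusted p = 0.410), without day 4 (log2 1.18, adjusted p = 0.109) and without skeletal spots (log2 0.97, adjusted p = 0.0558), and between the lowest and highest deciles the log2 fold change was -0.04 (adjusted p = 0.969). Quartile 2 against quartile 4 gave 0.49 (SE 0.40, adjusted p = 0.446).

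Flnc (chr6:29433256-29461883, plus strand) and Xirp1 (chr9:120013755-120023598, minus strand) were high in quartile 1 on day 1 and close to level over quartiles by day 14. Flnc stood at 1502, 470, 186 and 214 CPM in quartiles 1 to 4 on day 1 and at 244, 160, 103 and 132 on day 4. On day 7 it stood at 233, 270, 225 and 231 and on day 14 at 150, 161, 144 and 158, where the intervals of quartiles 1 and 4 overlapped. The fit gave a log2 fold change of 0.64 (SE 0.41, adjusted p = 0.182) for quartile 1 against quartile 4, which passed the test with library totals in place of TMM factors (log2 1.05, adjusted p = 0.0346). Xirp1 stood at 457, 204, 106 and 93.6 on day 1 and at 111, 109, 84.6 and 96.7 on day 4. Its day 7 values were 44.2, 139, 128 and 136 and its day 14 values 80.6, 97.7, 88.3 and 87.1. Its sections went opposite ways, with quartile 1 4.88-fold above quartile 4 on day 1 and at 0.326 of it on day 7. The fitted log2 fold change was 0.01 (SE 0.47, adjusted p = 0.990), and without day 1 it was -0.85 (adjusted p = 0.0306), a call in the other direction, in a fit where 32.3% of all genes were called lower.

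The LIM protein genes Csrp3 (chr7:48830398-48848033, minus strand) and Nrap (chr19:56320035-56390037, minus strand) were higher in quartile 1 than in quartile 4 on day 1 only and lower in the other 3 sections. Csrp3 stood at 4433, 2185, 1720 and 2022 CPM in quartiles 1 to 4 on day 1. The values of day 4 were 740, 1383, 1436 and 1619, those of day 7 were 390, 1613, 1798 and 1928, and those of day 14 were 1489, 1744, 1772 and 1826. Quartile 1 thus went from the highest quartile on day 1 to the lowest on the 3 later days. Nrap stood at 710, 391, 246 and 272 on day 1 and at 189, 333, 283 and 321 on day 4. Its day 7 values were 134, 345, 297 and 342 and its day 14 values 191, 222, 208 and 242. Neither gene passed the test for quartile 1 against quartile 4 over the 4 sections (log2 -0.80, SE 0.47, adjusted p = 0.145 for Csrp3, and log2 -0.53, SE 0.38, adjusted p = 0.229 for Nrap). Without day 1 both were called lower, as were 32.3% of all genes, at log2 -1.58 (adjusted p = 0.00672) and -1.23 (adjusted p = 0.00248). On day 1 both peaked in decile 1, at 5177 and 832 CPM. On days 4, 7 and 14 the lowest decile held 153, 254 and 180 CPM of Csrp3 and 42.0, 107 and 22.9 of Nrap.

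Counted together, 2 of the 8 genes (Sprr1a and Xirp2) were called higher and 0 lower in quartile 1 against quartile 4. Over all 4769 genes, 35.2% were called higher and 32.4% lower in that comparison, so 2 of 8 is no more than the share of all genes. With library totals in place of TMM factors, Flnc was called higher as well, which made 3 of 8, and 54.1% of all genes were higher, or 2579 higher and 941 lower against 1679 and 1547. Without day 1, 3 genes of the 8 were called lower in quartile 1 against quartile 4 and 4 in quartile 1 against quartile 2, where 32.3% and 22.5% of all genes were. In quartile 2 against quartile 4, 1 gene of the 8, Sprr1a, was called higher and 0 lower, where 3.36% and 0.189% of all genes were. Quartile 3 against quartile 4 gave 0 calls in either direction for the 8 genes by edgeR and by DESeq2, with a background of 0% higher and 0% lower. At an unadjusted p under 0.05, 28 of all genes passed by edgeR and 19 by DESeq2. In an edgeR fit of the 2 compared quartiles only, 361 passed, so the 0 calls depend on the dispersion shared by all 4 quartiles. In quartile 1 against quartile 2, 1 gene (Sprr1a) was called higher and 0 lower, against 22.7% and 24.9% of all genes. The median log2 fold change of the 8 genes was 0.34 for quartile 1 and 0.33 for quartile 2 against quartile 4, beside 0.05 and 0.02 for all genes. The sections are the replicates of these tests and come from different days, so the tests ask what all 4 days share.

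**Figure D3:**
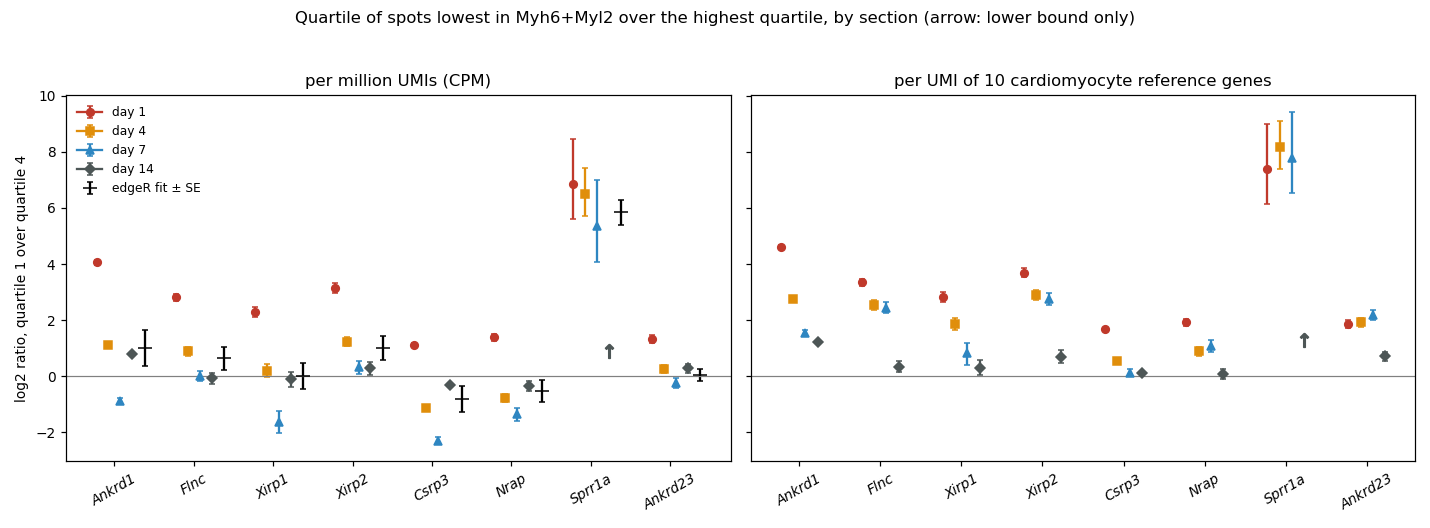
Log2 ratio of quartile 1 to quartile 4 for each gene and section, in CPM (left) and per UMI of the 10 cardiomyocyte reference genes (right), with 95% counting intervals, an arrow at the lower bound where quartile 4 held 0 UMIs, and the edgeR log2 fold change with its SE in black on the left. On the left Csrp3 runs from 1.13 on day 1 to -2.30 on day 7, whereas on the right all 8 genes lie above 0 in all 4 sections. On the scale of the right panel, 83.5% of all 4769 genes were called higher by edgeR.

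Quartile 1 held less cardiomyocyte mRNA, so the genes were also set against the 10 reference genes. Per 1000 reference UMIs, Ankrd1 stood at 220, 97.7, 90.3 and 33.8 in quartile 1 on days 1, 4, 7 and 14, and at 9.06, 14.4, 30.7 and 14.5 in quartile 4. Quartile 1 was the higher in each section. Csrp3 stood at 123, 48.8, 39.9 and 38.3 in quartile 1 and at 38.7, 33.9, 36.4 and 35.0 in quartile 4, so its quartiles stood 3.18-fold and 1.44-fold apart on days 1 and 4 and 1.09-fold on days 7 and 14. Xirp2 stood at 26.3, 19.0, 18.6 and 3.07 in quartile 1 and at 2.03, 2.56, 2.76 and 1.88 in quartile 4. On this scale all 8 genes were higher in quartile 1 in 4 of 4 sections and all 8 were called higher by edgeR, from log2 0.67 (adjusted p = 0.0399) for Csrp3 to 7.81 (adjusted p = 6.65e-11) for Sprr1a. The one counting interval that included no difference was that of Nrap on day 14, at a log2 ratio of 0.077. The background was as wide, since 83.5% of all genes were called higher and the median of all genes moved to 1.81. Relative to that median, Sprr1a, Xirp2, Ankrd1 and Flnc lay above it, at 7.81, 2.66, 2.49 and 2.31, and Ankrd23, Xirp1, Nrap and Csrp3 below it, at 1.71, 1.54, 1.03 and 0.67. A call on this scale is therefore not particular to these genes. The day 7 values on this scale also include the skeletal spots. Those 118 spots held 188 UMIs of Xirp2, 126 of Nrap and 222 of Ankrd23, against 81, 73 and 156 in the 347 other spots of quartile 1. The remaining genes had more UMIs in the 347 spots. No value per reference UMI without the skeletal spots is given, and their part in these calls was not tested.

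The day 7 skeletal spots carried some of the genes at high levels. Of the 118, 115 were in quartile 1 and 3 outside it. In the 118 spots Xirp2 stood at 384 CPM (95% interval 331 to 443) against 82.3 (65.3 to 102) in the 347 spots of quartile 1 that were not skeletal. Nrap stood at 258 against 74.1, Ankrd23 at 454 against 158 and Flnc at 309 against 194. All 4 are genes that skeletal muscle also uses. In contrast, Ankrd1 stood at 282 against 1183 and Sprr1a at 28.6 (14 UMIs) against 104. On day 7, Xirp2 in quartile 1 was thus above the 146 CPM of quartile 4 with these spots, at 182, and below it in the 347 spots.

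Over the spots of a section, all 8 genes correlated with Nppb above 0 in all 4 sections, that is in 32 of 32 pairs of gene and section. The share of all tested genes that correlate above 0 with Nppb was not computed. The count is therefore not shown to be particular to the 8 genes. Nppb itself stood at 1978, 966, 103 and 85.0 CPM in quartiles 1 to 4 on day 1 and at 563, 630, 113 and 81.7 on day 4. Its day 7 values were 135, 1008, 763 and 754, so that quartile 1 was the lowest, and its day 14 values were 211, 151, 104 and 93.7. The values over spots are Spearman correlations of UMI shares over 1679 to 2086 spots, which share a library and neighbours, and no p was computed. Ankrd1 was highest in each section, at 0.75, 0.66, 0.54 and 0.42 in order of day. The other 7 genes had means over the sections of 0.22 to 0.32. For Flnc, Xirp2 and Xirp1 the day 1 section was the highest, at 0.63, 0.53 and 0.47, and the day 14 section the lowest, at 0.17, 0.16 and 0.10. Csrp3 instead alternated, with 0.52, 0.12, 0.47 and 0.17 in order of day. Sprr1a had the lowest mean, with 0.43 and 0.39 on days 1 and 4 and 0.01 and 0.04 on days 7 and 14. Averaged over the 8 genes the correlation was 0.52, 0.32, 0.28 and 0.19 on days 1, 4, 7 and 14, a mean of 0.331 ± 0.140 (SD over 4 sections). Counts in a spot are low, so the correlation was also computed at equal depth. The shares themselves went with the UMIs per spot, at Spearman -0.07 (Sprr1a) to 0.40 (Csrp3) on day 7 and -0.05 to 0.30 (the same genes) on day 14. With spots of at least 2000 UMIs thinned to 2000 and shallower spots left out, the mean was 0.210, and the section means were 0.42, 0.21, 0.14 and 0.07 in order of day. That left 1636 to 1819 spots in a section, so depth and the set of spots changed together. Within quartiles of spots, which narrows the range of myosin share, the mean was 0.215. Ankrd1 stayed the highest at 0.448 thinned and 0.415 within quartiles. Thinning brought 1 of the 32 values to 0 or below.

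**Figure D4:**
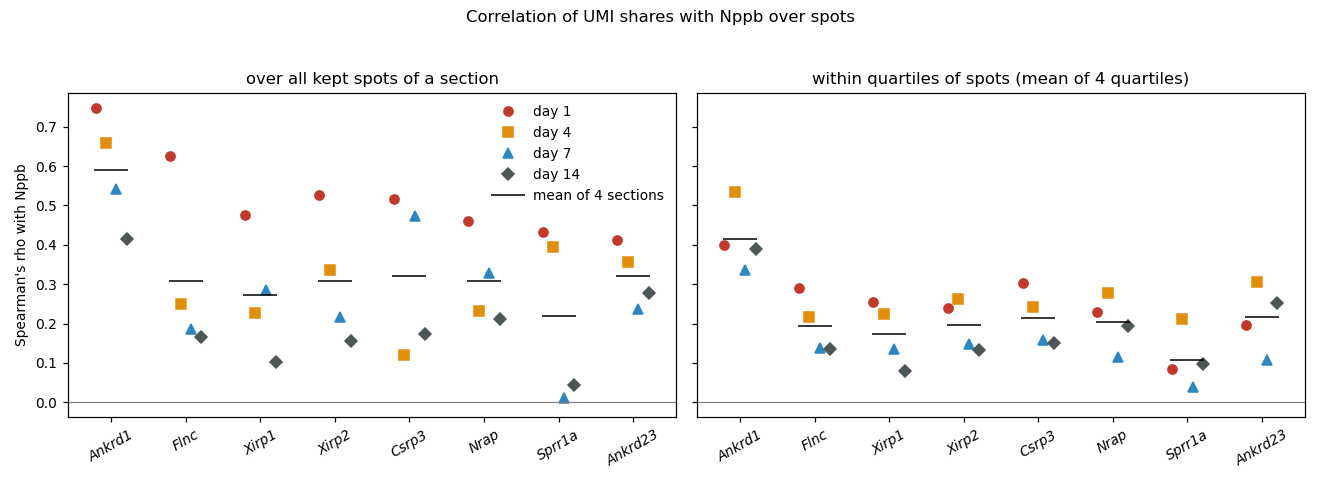
Spearman's rho of each gene's UMI share with that of Nppb over the spots of each section (left) and averaged within the 4 quartiles of spots (right), with points for sections and bars for the mean of 4 sections. Ankrd1 is highest in all 4 sections on the left, from 0.42 to 0.75, and all points on both sides lie above 0. Single quartiles went below 0, such as quartile 3 for Sprr1a on day 1 at -0.090. For Sprr1a on day 14 the right point is quartile 1 alone, since quartiles 2 to 4 held 0 UMIs.

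Among themselves the 8 genes form 28 pairs, whose median correlation over spots was 0.398, 0.196, 0.153 and 0.154 in order of day. No such median was computed for pairs of other genes. Means over the sections ran from 0.06 for Csrp3 with Sprr1a to 0.40 for Ankrd1 with Ankrd23. Csrp3 and Sprr1a were at 0.39 on day 1 and at -0.09 and -0.07 on days 4 and 7. Each gene was also set against the other 4768 tested genes, ranked on the mean correlation over the 4 sections. The gene most like Ankrd1 was Nppb at 0.59, followed by Acta1 (skeletal alpha actin, a fetal heart gene) at 0.57 and Clu (clusterin, a secreted chaperone) at 0.54. Ankrd1 in turn was the gene most like Nppb, Flnc, Nrap and Ankrd23. Xirp1 was most like Cryab, a small heat shock protein of the Z-disc, at 0.28, and Xirp2 most like Des (desmin) at 0.34. Csrp3 was most like Actc1 (cardiac actin) at 0.49, Cryab at 0.48 and Tpm1 (tropomyosin) at 0.37, and Nppb came at rank 10. Sprr1a had Clu at 0.33, Nppa (atrial natriuretic peptide) and Timp1 (an inhibitor of matrix metalloproteinases) both at 0.30 as its nearest genes, and Nppb at rank 61. Its means include day 14, where it had 5 UMIs over 2086 spots. With Nppb it was at 0.43, 0.39, 0.01 and 0.04 in order of day.

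Genes of related function were read in the same comparison of quartile 1 with quartile 4, as counts. Of all genes, 35.2% were called higher and 32.4% lower there. Of 22 other Z-disc and sarcomere scaffold genes tested, 3 were called higher and 15 lower, with a median log2 fold change of -1.07. The largest falls were Fhl2, a LIM protein (-2.34), and Tcap, the titin cap (-2.12), and the largest rises were Flna, the filamin of non-muscle cells (2.15), and Pdlim3 (1.70). Most of the Z-disc list thus fell with the reference genes, of which 10 of 10 were lower (Tnni3 -2.39, Myl3 -2.10). Ranking on Myh6 and Myl2 itself puts spots poor in heart muscle mRNA into quartile 1, so falls of other heart muscle genes are no separate result. Of 13 costamere and force linkage genes, 7 were higher, led by Vasp (1.62) and Zyx (1.58), both actin regulators of cell contacts, and 3 lower, led by Sgca (-1.71) and Dmd (-0.76) of the dystrophin complex. Of 11 genes of myofibre protein quality control, 1 was higher (Dnajb6, a chaperone, 0.40) and 8 lower, with Trim63, a muscle ubiquitin ligase, at -1.22 and the myosin chaperone gene Unc45b at -1.19.

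For lists of stress and stretch responses the counts stand beside the 35.2% of all genes called higher and 32.4% called lower, and the lists themselves were not tested. Of 4 fetal cardiac genes tested, 2 were higher and 0 lower, Acta1 at 3.54 (SE 0.64, adjusted p = 0.000435) and Nppa at 3.19 (SE 0.81, adjusted p = 0.00387). Acta1 is skeletal alpha actin, and its value includes the skeletal spots of day 7. A value without those spots is not given, and their part in it was not tested. Of 9 SRF-MRTF targets 8 were higher and 0 lower, led by Tagln (2.35) and Myh9 (2.13), and of 8 YAP-TEAD targets 4 were higher, led by Ccn2 (2.13) and Ccn1 (1.70), and 1 lower (Tead1, -0.39). Of 10 interleukin 6 family response genes 9 were higher, led by Timp1 (5.20) and Serpina3n (3.39), and Lifr was lower (-0.78). Nppa is also an atrial marker, and the 4 other atrial markers summed to 1.83, 6.53, 151 and 3.36 CPM in quartile 1 and 1.03, 2.37, 3.07 and 2.14 in quartile 4 in order of day, with Bmp10 at 0 throughout. Many of these genes are also made by fibroblasts, smooth muscle and macrophages. In the same comparison 5 of 6 fibroblast markers (Postn 4.16, Col1a1 3.98) were higher. So were the 5 tested of 8 macrophage markers (Cd68 2.78, Lyz2 2.60). Both tested of 5 smooth muscle markers were higher too (Acta2 1.79, and Tagln, which is also on the SRF-MRTF list). The 8 skeletal markers tested were all called higher too (Myh1 7.39, Myh2 7.27), but these calls rest on the day 7 section. Its quartile 1 held 29907 UMIs of the 10 skeletal genes, against 13, 55 and 36 in quartile 1 of days 1, 4 and 14. Myh1 and Myh2 had 0 UMIs in quartile 1 of days 1, 4 and 14. The part of all those cells in the lists was not tested. In quartile 2 against quartile 4, where 3.36% of all genes were called higher, 1 of 4 fetal genes, 2 of 9 SRF-MRTF targets, 1 of 8 YAP-TEAD targets, 5 of 10 interleukin 6 family genes and 2 of 13 costamere genes were higher, and none of the Z-disc, quality control or reference genes was called.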

How the data were processed

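Visium UMI counts per gene and spot were deposited by the authors, who made them with Space Ranger 1.3.0 on mm10 from manually aligned images, with no normalization. Spots with over 1% of UMIs in 9 hemoglobin genes were removed, as in the methods. The removal of tissue-edge spots was not repeated. Spots of each section were ranked on Myh6 plus Myl2 share, and UMIs were summed per section and quartile (16 libraries). edgeR 4.0.16 (limma 3.58.1, R 4.3.3) fitted TMM-normalized sums by robust quasi-likelihood with section as a block. All 4 quartiles shared 1 dispersion per gene. Each SE is the absolute log2 fold change over the square root of the F statistic, and not the spread of section ratios. Benjamini-Hochberg adjustment ran over 4769 genes, with calls at 0.05. The script was tested on simulated data. Levels carry exact Poisson 95% intervals, and ratios exact conditional ones. No test between days was made. Named genes were the 8 genes, Nppb, the ranking genes, the 3 most alike per gene, and the 2 largest rises and falls called per list. The genes and lists were chosen with earlier results of these data known. Cell marker lists also covered neutrophils, endothelium, atrium, mesothelium and adipocytes. Of these, 1 of 1 neutrophil, 1 of 1 atrial, 1 of 4 endothelial and 0 of 2 adipocyte genes tested were called higher in quartile 1 than in quartile 4, 1 endothelial and 1 adipocyte gene were lower, and 0 mesothelial or epithelial genes were tested. Alternatives were DESeq2 1.42.0, other scalings, filters, rankings and blocks, and each section left out.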

Additional observations from a re-analysis of the deposited data

Results flagged for a closer look

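Under the same contrast, 5 genes moved one way on day 1 and the other way on day 7, which is why they are listed here. For Ankrd1 the log2 ratio of quartile 1 to quartile 4 was highest on day 1 at 4.06 and lowest on day 7 at -0.88. For Xirp1 the values were 2.29 and -1.62. For Csrp3, the muscle LIM protein, they were 1.13 and -2.30, the widest fall below 0 of the 5. Nrap went from 1.38 to -1.35 and Ankrd23 from 1.34 to -0.24. Each day is 1 section of 1 mouse, so the difference between days was not tested. Quartile 1 also held different mixtures of cells on day 1 and day 7. Its cardiomyocyte reference stood at 35932 CPM on day 1 and 9795 on day 7, and its fibroblast markers at 2159 and 39057. In quartile 4 the reference stood at 52191 and 52953 CPM on those days. On day 7, 115 of the 462 spots of quartile 1 were skeletal. The part of these mixtures in the changes of sign was not tested. Per reference UMI, none of the 5 was below quartile 4 in any section, with the skeletal spots of day 7 included. On that scale 83.5% of all 4769 genes were called higher in quartile 1, with a median log2 fold change of 1.81. Values above 0 there are therefore not particular to the 5 genes.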

How the results depend on the processing

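Single-gene alternatives cover quartiles 1 and 2 against 4, and Sprr1a in 1 against 2. Of 246 values, 200 kept direction and threshold side, and 26 reversed, whether or not a call changed as well. Among values that kept direction, 12 lost a call and 8 gained one. Counts of the 8 genes are given here with the count over all genes tested in brackets, of 4769 unless stated. The count of genes called higher in quartile 1 against quartile 4 was 2 in the fit as reported (1679). It was 3 with library totals (2579) and 8 with the cardiomyocyte reference (3983) in place of TMM library sizes. It was 1 with genes of at least 10 UMIs (3632 of 15062), with spots ranked on the reference (1722) and without skeletal spots (1700). It was also 1 with the 2 compared quartiles only (1136) and with the lowest and highest deciles (1319), and 1 to 2 with each section left out (1326 to 1668). Genes called lower there numbered 0 as reported (1547), 0 to 3 with a section left out (3 without day 1, in a fit with 32.3% of all genes lower) and 1 with deciles (1226). In quartile 2 against quartile 4 the count called higher was 1 (160), then 0 without the section block (0) and 0 to 1 with a section left out (0 to 563). Without day 1 or day 4 it was 0, where 0 of all genes were called. In quartile 1 against quartile 2 the count called higher was 1 (1083), then 5 with the reference (3869), 0 without the block (494) and 0 with spots ranked on the reference (1366). With a section left out it was 0 to 1 (316 to 957), and without day 4 it was 0 (464). There, 0 to 4 genes were lower (4 without day 1, with 22.5% of all genes lower). Log2 values for quartile 1 against quartile 4 that changed sign with a section left out ran from -0.0064 (without day 1) to 1.66 for Ankrd1, -0.16 to 0.98 for Flnc, -0.85 to 0.52 for Xirp1 and -0.33 to 0.28 for Ankrd23, in each case with the lowest without day 1 and the highest without day 7. With deciles they were -1.38 for Ankrd1, -0.13 for Flnc, -1.35 for Xirp1, -0.041 for Xirp2 and -1.02 for Ankrd23. With genes of at least 10 UMIs they were -0.23 for Xirp1 and -0.21 for Ankrd23, and with spots ranked on the reference -0.38 and -0.26. Xirp1 was also at -0.041 with DESeq2, -0.033 with no hemoglobin filter and -0.21 with the 2 quartiles only. With the reference, Csrp3 was at 0.67 and Nrap at 1.03. For quartile 2 against quartile 4, the reference gave 0.14 for Csrp3 and 0.35 for Nrap, and Nrap, at -0.01 as reported, was at 0.084 with library totals, 0.031 without the block, 0.0095 with the 2 quartiles only and -0.13 to 0.051 with a section left out. The cause of each change was not tested.

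Over all genes, library totals turned 1679 higher and 1547 lower calls in quartile 1 against quartile 4 into 2579 and 941, with a median of 0.46 in place of 0.05. With genes of at least 10 UMIs, 3632 were higher and 3118 lower of 15062. In quartile 2 against quartile 4, 160 higher and 9 lower calls became 68 and 2 with library totals, 13 and 0 with the reference, 382 and 106 with DESeq2, 333 and 37 with genes of at least 10 UMIs, 0 and 0 without the block, 37 and 1 with spots ranked on the reference, 4 and 0 with spots of at least 2000 UMIs, 44 and 0 without skeletal spots and 19 and 3 with the 2 quartiles only. With no hemoglobin filter 40 were lower, and with a section left out the higher calls were 0 to 563. In quartile 1 against quartile 2, 1083 and 1187 calls became 2204 and 652 with library totals, 3869 and 6 with the reference, 1786 and 1953 with genes of at least 10 UMIs, 494 and 485 without the block, 464 and 338 without day 4 and 316 and 127 without day 7. Quartile 3 against quartile 4 gave 14 and 5 calls with the 2 quartiles only. The mean correlation with Nppb moved by less than its SD over sections under all 5 alternatives. Depth limits Sprr1a most, at 5 UMIs on day 14 and 5 to 13 in quartile 4 of the other days. Quartiles of the same section were paired in the tests through the section block, which is the only pairing. Sections were not paired with each other.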
